A study of Sus scrofa with 8 samples.

Results

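AGR2, a secretory-cell member of the protein disulfide isomerase family, was examined in endometrium, the mucosa that lines the uterus of the pig, together with genes that fold proteins in the endoplasmic reticulum. The 10 genes named for this question were AGR2, AGR3, P4HB, PDIA3, PDIA4, PDIA5, PDIA6, the chaperone HSPA5, and the stress-response genes XBP1 and ERN2. Each was sought through the Entrez gene ID of the deposited transcripts, and 7 of the 10 were matched, among 21064 genes in all. AGR3, P4HB and ERN2 matched no transcript and are not analysed here. AGR2 has 2 transcripts in the deposited annotation and each of the others has 1, so the transcript with the highest mean count stands for the gene. AGR2 was selected on its measured change from control to pregnant libraries, so its values are described without a test. The other genes were named for their function, with earlier results of these data known.

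The tissue came from 8 prepuberal German Landrace gilts, 1 library per animal, on day 14 after insemination. All 8 were primed with PMSG (750 IU), a gonadotropin used to induce growth of follicles, and 72 h later with hCG (500 IU), which triggers ovulation. The 4 pregnant gilts were given Pietrain semen 24 h and 36 h after hCG, and the 4 control gilts were given the cell-free supernatant of semen from the same boar. Pregnant endometrium was cut from the reddened zones at which conceptuses attach and control endometrium from matching places, so pregnancy and the reddened zone cannot be told apart. Both kinds of sample held epithelium and connective tissue without the muscle layer, and RNA from 3 places along 1 horn was pooled for each animal. Total counts per library ran from 28035007 to 41016150.

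Protein disulfide isomerases sit in the endoplasmic reticulum and make, break and reshuffle the disulfide bonds of secreted and membrane proteins. AGR2 is a small family member of mucus-secreting and glandular epithelia, where it is known for its part in the folding of mucins. HSPA5 (also BiP or GRP78) is the main Hsp70 chaperone of this compartment, and XBP1 is a transcription factor that is switched on by splicing when unfolded protein builds up. The uterine glands of the pig secrete large amounts of protein into the lumen before the placenta forms, and this secretion changes when conceptuses are present.

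The AGR2 gene (Entrez 100514482) lies on chromosome 9 at 94843468 to 94855247 of Sscrofa10.2, on the plus strand, in a transcript with 8 exons and 831 exonic bases. AGR2 had 18571, 22533, 16056 and 20537 reads in control replicates 1 to 4, and 395, 315, 133 and 254 reads in pregnant replicates 1 to 4. On the CPM scale (reads relative to the TMM-scaled size of the library), the control levels were 629.8, 674.8, 532.9 and 588.2 and the pregnant levels 13.98, 8.23, 4.40 and 7.75. The lowest control library was far above the highest pregnant one, so every pregnant library was low and the groups did not overlap. The mean level was 606 ± 60.4 CPM (SD, n = 4) in controls and 8.59 ± 3.98 CPM (SD, n = 4) in pregnant gilts, which is 70.6-fold lower. On the log2 scale the fitted change was -6.14 ± 0.33 (SE), and it ran from -6.47 to -5.93 when each library was left out in turn. The other AGR2 transcript, from 94843447 to 94855301, gave -6.15 ± 0.34 and shares its inner exons and therefore most of its reads.

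AGR2 was among the most abundant messages of control endometrium. Ranked by CPM per kilobase of exon, it held ranks 62 to 93 of 21064 genes in the control libraries and ranks 4447 to 8927 in the pregnant libraries. Only 9 of the 15913 genes tested had a larger fitted fall. The pregnant libraries also varied more among themselves, with a coefficient of variation of 46.3% against 9.97% in controls. Pregnant replicate 1 had the highest remaining AGR2 level and pregnant replicate 3 the lowest.

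**Figure D1:**
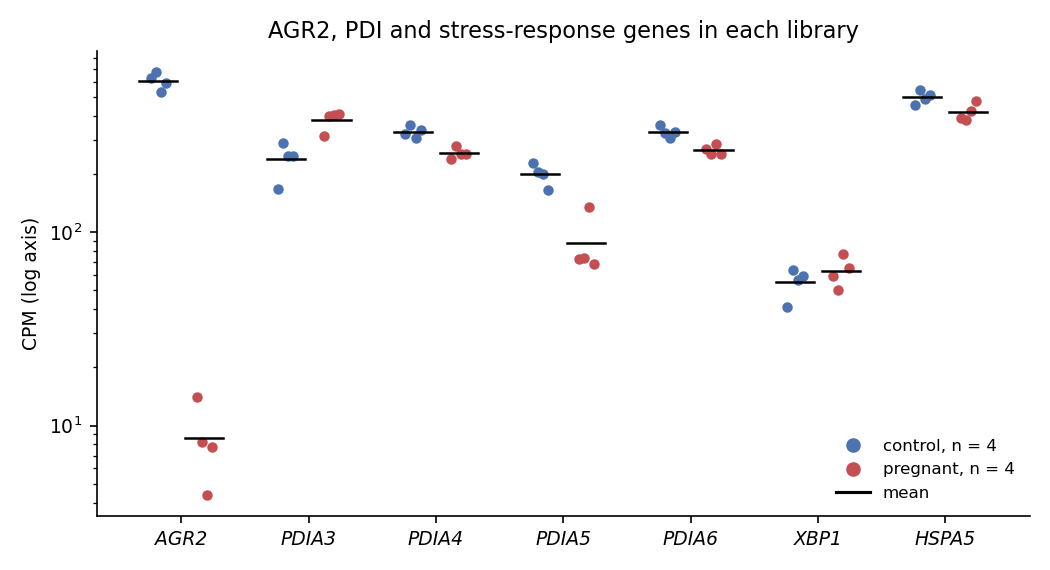
Level of each of the 7 matched genes in CPM (log axis) in the 4 control and 4 pregnant libraries, 1 point per animal, with the group mean as a line. AGR2 drops from 533 to 675 CPM in controls to between 4.40 and 14.0 CPM in pregnant gilts, while the other 6 genes stay within the same order of magnitude.

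AGR2 is an epithelial message, and in bulk tissue fewer cells of a type and less RNA per cell cannot be told apart. Of 12 matched epithelial markers, none of which was at 0 in either group, 4 fell and 1 rose in the edgeR test, where 21.3% of all transcripts tested were called (adjusted p under 0.05). The keratin KRT8 went from 1260 ± 252 to 294 ± 53.0 CPM, a log2 change of -2.10 ± 0.19 (edgeR adjusted p = 4.2e-05). KRT18 (-1.58 ± 0.18), KRT19 (-1.83 ± 0.30) and the splicing regulator ESRP1 (-1.01 ± 0.15) fell too, and the tight-junction gene CLDN4 rose by 1.06 ± 0.20. The adhesion molecule EPCAM, which shares exonic bases with another gene, had 144 ± 43.8 CPM in controls and 116 ± 20.6 CPM in pregnant gilts, and this difference did not pass (edgeR adjusted p = 0.315). The summed level of the 12 markers lay between 2507 and 3829 CPM in controls and between 1934 and 2625 CPM in pregnant gilts, so the sums overlapped.

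AGR2 was also set against epithelial messages in the same library, as a description. It was selected on its fall, which was larger than that of any epithelial marker, so lower ratios in pregnant gilts were set in advance. The ratio of AGR2 to EPCAM, both in CPM, was 3.27 to 6.11 in controls and 0.0324 to 0.128 in pregnant gilts. Against KRT8, the marker with the largest fall, the ratio was 0.389 to 0.652 in controls and 0.0131 to 0.0411 in pregnant gilts. Against KRT19 it was 1.99 to 4.17 in controls and 0.0477 to 0.383 in pregnant gilts. The part of epithelial content in the AGR2 values was not tested.

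The change of AGR2 was not matched in size by any of the other 6 genes. With edgeR's quasi-likelihood test, adjusted over the 18783 transcripts tested, PDIA3 rose, PDIA4 and PDIA5 fell, and PDIA6, HSPA5 and XBP1 did not pass. That is 3 of 6, or 1 higher and 2 lower, beside the same 21.3% over all transcripts, 11.2% higher and 10.1% lower. Their median log2 change was -0.29, beside -0.02 over all transcripts tested, and the changes ran from -1.19 to 0.68.

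PDIA5 (Entrez 100518582, chromosome 13, 146843480 to 146941923, minus strand, 17 exons), an isomerase known also for acting on the stress sensor ATF6, came closest. Its levels were 226.8, 205.3, 200.5 and 165.8 CPM in controls and 72.9, 73.8, 135.3 and 68.6 CPM in pregnant gilts. All pregnant libraries were below all control libraries, and pregnant replicate 3 stood above the other pregnant ones. The mean fell from 199.6 ± 25.3 to 87.6 ± 31.9 CPM (SD, n = 4), 2.28-fold, with a log2 change of -1.19 ± 0.22 (edgeR adjusted p = 0.00304). The call held under every alternative fit tried, with adjusted p at most 0.0141.

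PDIA4 (Entrez 100522203, chromosome 9, 120197984 to 120217660, plus strand, 10 exons), also called ERp72, is an isomerase with several thioredoxin-like domains. It lies on the same chromosome as AGR2. Its levels were 323.1, 357.5, 308.7 and 337.3 CPM in controls and 239.6, 279.7, 253.1 and 255.1 CPM in pregnant gilts. The groups did not overlap, and the mean fell from 332 ± 20.8 to 257 ± 16.7 CPM, a log2 change of -0.37 ± 0.11 (edgeR adjusted p = 0.0322). With 1 library left out the edgeR adjusted p lay between 0.0512 and 0.0943 for 6 of the 8 choices (each but control replicate 1 and pregnant replicate 2), and the call was lost also without a filter on low counts (-0.35, edgeR adjusted p = 0.0521).

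PDIA6 (Entrez 100499564, chromosome 3, 134582104 to 134604258, minus strand, 13 exons), also called P5, is an isomerase that works with HSPA5. Its levels were 357.9, 326.4, 307.4 and 328.7 CPM in controls and 268.8, 253.3, 286.3 and 254.1 CPM in pregnant gilts. The ranges did not overlap, yet the log2 change of -0.31 ± 0.11 (95% interval -0.55 to -0.08) did not pass (edgeR adjusted p = 0.0586). It passed with library totals in place of TMM scaling (-0.44, edgeR adjusted p = 0.00673) and with DESeq2 (-0.30, adjusted p = 0.0205).

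PDIA3 (Entrez 100156204, chromosome 1, 142615685 to 142643746, minus strand, 13 exons), also called ERp57, folds glycoproteins held by calnexin and calreticulin and is part of the complex that loads peptide onto MHC class I. It went the other way from PDIA4 and PDIA5. Its levels were 168.0, 291.1, 247.0 and 249.3 CPM in controls and 314.8, 397.0, 406.1 and 410.7 CPM in pregnant gilts. Each pregnant library was above each control library, although replicate 1 was the lowest of both groups. The mean rose from 239 ± 51.4 to 382 ± 45.3 CPM with a log2 change of 0.68 ± 0.17 (edgeR adjusted p = 0.0166). With library totals in place of TMM it was 0.54 and did not pass (edgeR adjusted p = 0.0573).

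Of the partners of PDIA3, TAPBP and TAP1 were named after their values were known, and they rose, while the lectins that hand glycoproteins to PDIA3 did not. Tapasin (TAPBP), which forms a disulfide-linked pair with PDIA3, had a mean of 216 ± 49.3 CPM in controls and 401 ± 37.7 CPM in pregnant gilts (0.89 ± 0.16, edgeR adjusted p = 0.00275). The peptide transporter TAP1 had 88.6 to 112 CPM in controls and 479 to 868.5 CPM in pregnant gilts (2.78 ± 0.20, edgeR adjusted p = 1.57e-05). Calreticulin (CALR) did not pass and had a lower mean in pregnant gilts, with its values given among the chaperones, and calnexin (CANX) had 261 ± 68.3 and 244 ± 17.6 CPM (edgeR adjusted p = 0.758). Markers of immune cells also differed between the groups. Their counts are read beside 11.2% higher and 10.1% lower over all transcripts tested. All 11 tested T and cytotoxic cell markers rose, with sums of 32.3 to 77.7 CPM in controls and 156 to 249 CPM in pregnant gilts, and no marker was at 0. The call of CD8A was lost on leaving out any 1 of 6 libraries, each but replicate 1 of either group (edgeR adjusted p 0.0566 to 0.0951). Of 8 tested macrophage markers 7 rose (6 without pregnant replicate 2 or 3, as CD14 then had an edgeR adjusted p of 0.0532 or 0.0502), with sums over the list of 376 to 692 CPM in controls and 1125 to 1498 CPM in pregnant gilts, and the call of the 1 that fell, MRC1, was lost without any 1 of 5 libraries (control replicates 2 and 4, pregnant replicates 1, 3 and 4). Their part in the PDIA3 values was not tested.

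HSPA5 (Entrez 407060, chromosome 1, 299754032 to 299758563, minus strand, 8 exons) had 456.6, 544.5, 487.3 and 512.0 CPM in controls and 391.0, 378.9, 424.6 and 479.9 CPM in pregnant gilts. Pregnant replicate 4 lay within the control range, so the groups overlapped. The means were 500.1 ± 37.3 and 419 ± 45.2 CPM, and the log2 change of -0.26 ± 0.12 (95% interval -0.52 to 0.01) did not pass (edgeR adjusted p = 0.161).

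XBP1 (Entrez 100217386, chromosome 14, 49015848 to 49016649, minus strand) is held in the deposited annotation as 1 exon of 802 bases, so its count does not measure splicing. Its levels were 41.2, 64.1, 56.6 and 59.5 CPM in controls and 59.2, 50.5, 76.8 and 65.1 CPM in pregnant gilts, with wide overlap. The log2 change of 0.18 ± 0.17 (95% interval -0.18 to 0.55) did not pass (edgeR adjusted p = 0.473). Of the 6 genes other than AGR2, 4 had ranges that did not overlap between groups, 1 higher and 3 lower, where the share over all transcripts was 26.1%, with 13.2% higher and 12.9% lower.

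**Figure D2:**
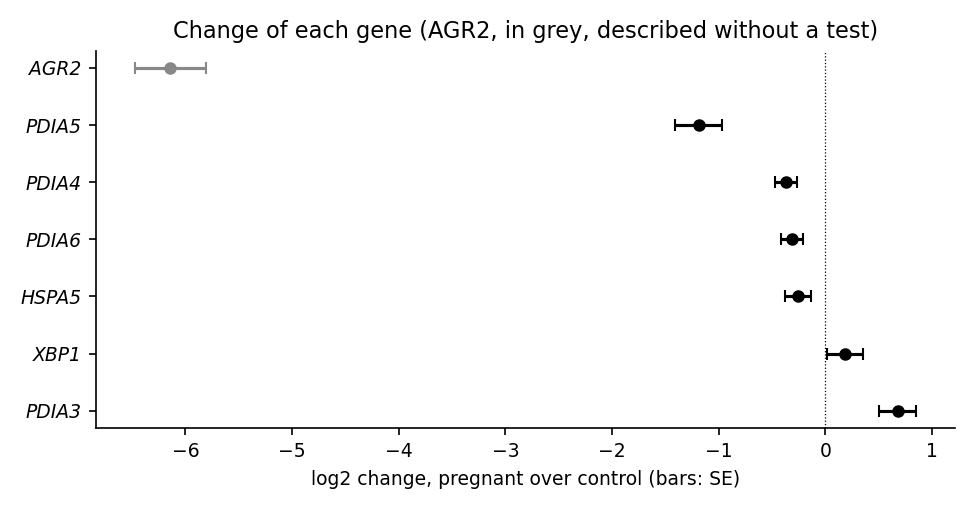
Log2 change from control to pregnant for the 7 matched genes, with bars of 1 SE, from the edgeR fit of 4 against 4 libraries. AGR2, drawn in grey, lies at -6.14, while the other 6 lie between -1.19 (PDIA5) and 0.68 (PDIA3).

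Per kilobase of exon, AGR2 went from first to last in the order of levels and PDIA3 moved up to first, while PDIA6, HSPA5, PDIA4 and PDIA5 kept their order of means. In controls AGR2 led with 730 CPM per kilobase (641 to 812 over the 4 libraries), clear of PDIA6 at 249 (232 to 271) and HSPA5 at 225 (206 to 245), which overlapped each other. PDIA3 followed at 157 (110 to 191), overlapping PDIA4 at 106 (98.6 to 114) and PDIA5 at 106 (87.9 to 120), and XBP1 came last at 69.0 (51.4 to 79.9). In pregnant gilts PDIA3 led at 251 CPM per kilobase (207 to 269), with PDIA6 at 201 (191 to 216) and HSPA5 at 189 (171 to 216) overlapping it. PDIA4 at 82.1 (76.6 to 89.4), XBP1 at 78.4 (63.0 to 95.8) and PDIA5 at 46.5 (36.4 to 71.8) formed the next group, and AGR2 was last at 10.3 (5.30 to 16.8).

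The levels of 5 isomerase genes were also set out as shares of their sum. AGR2 was selected on its fall and is part of that sum, so its fall alone raises the shares of the other 4. AGR2 made up 54.1 ± 1.76% of the summed CPM per kilobase of AGR2, PDIA3, PDIA4, PDIA5 and PDIA6 in controls and 1.80 ± 0.951% in pregnant gilts. The share of PDIA3 was 11.6 ± 2.38% in controls and 42.4 ± 3.33% in pregnant gilts, and that of PDIA6 was 16.7% to 19.9% and 32.4% to 37.5%. PDIA4 had 7.87 ± 0.264% and 13.9 ± 1.04%, whereas PDIA5 had 7.87 ± 1.01% and 7.78 ± 2.31%. A share can grow while the level falls, as it did for PDIA4. The 5 genes summed to 1348 ± 97.2 CPM per kilobase in controls and 590.4 ± 40.4 in pregnant gilts. Without AGR2 the other 4 summed to 618 ± 28.7 and 580.1 ± 45.1, and these ranges overlapped.

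**Figure D3:**
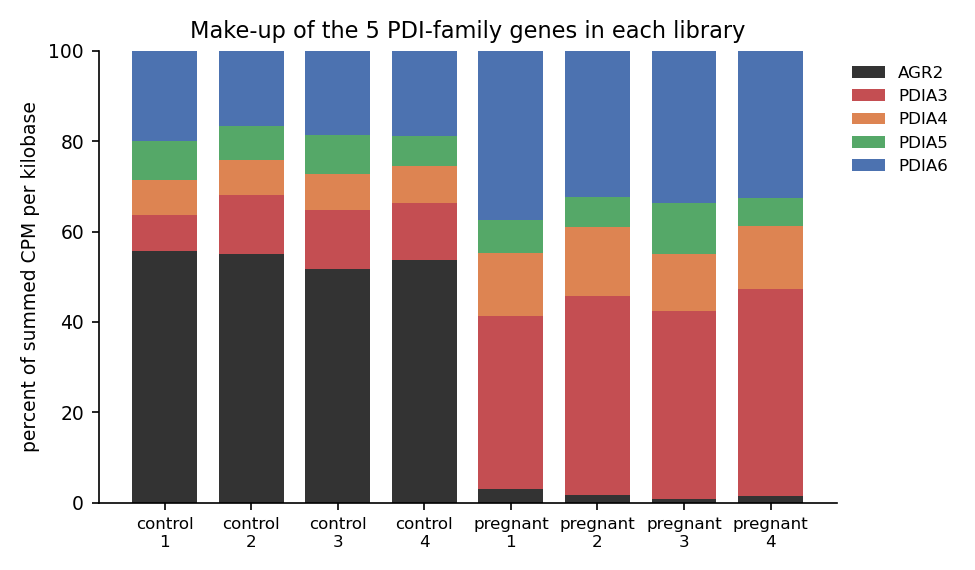
Share of each of 5 isomerase genes in their summed CPM per kilobase, in percent, for each of the 8 libraries as stacked bars from 0 to 100. AGR2 fills 51.7% to 55.6% of the bar in controls and 0.826% to 3.10% in pregnant gilts, where PDIA3 and PDIA6 take most of it.

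The remaining isomerase family had 12 matched genes, of which 10 could be tested. In the edgeR test 0 rose and 2 fell, a share near the 21.3% over all transcripts. At an unadjusted p under 0.05, 1 was higher and 2 were lower, and DESeq2 and limma voom each called 0 higher and 2 lower. The median log2 change was -0.02, the same as over all transcripts. The membrane-bound TMX4 fell from 47.5 ± 12.6 to 31.3 ± 3.14 CPM (-0.60 ± 0.18, edgeR adjusted p = 0.0386). Its call was lost without any 1 library other than control replicates 1 and 4 (edgeR adjusted p 0.06 to 0.103). TMX2, which shares exonic bases with a neighbour so that their reads cannot be told apart, fell by 0.38 ± 0.12 (edgeR adjusted p = 0.0433), a call lost without any 1 library other than control replicate 4 (edgeR adjusted p 0.068 to 0.128). TXNDC5, an isomerase abundant in endothelium and plasma cells, had 165 ± 6.74 and 155 ± 23.6 CPM, and TXNDC12, a relative of AGR2 with a single thioredoxin-like domain, had 35.8 ± 4.06 and 36.0 ± 3.55 CPM. ERP44, which retains folding enzymes in the early secretory pathway, had 21.3 ± 4.86 and 24.5 ± 3.79 CPM. None of these 3 passed. PDIA2 and ERP27 had too few reads to test.

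Of 9 genes that hand oxidising power to isomerases, form disulfides themselves or encode related thiol proteins, 1 rose and 2 fell. Over all transcripts 21.3% were called, and the median log2 change of the 9 genes was -0.22. QSOX1, a secreted and Golgi sulfhydryl oxidase, had 184 to 240 CPM in controls and 126 to 131 CPM in pregnant gilts (-0.65 ± 0.12, edgeR adjusted p = 0.00392). PRDX4, the peroxiredoxin of the endoplasmic reticulum, fell from 44.6 ± 3.55 to 31.1 ± 3.07 CPM (-0.52 ± 0.12, edgeR adjusted p = 0.0112). ERO1B, an oxidase that recharges isomerases, rose from a low level, 0.948 ± 0.429 to 2.50 ± 0.685 CPM (1.39 ± 0.39, edgeR adjusted p = 0.0282). Leaving out control replicate 3, or any 1 of pregnant replicates 2, 3 and 4, ended this call (edgeR adjusted p 0.0572 to 0.091). Its relative ERO1A had 4.24 ± 1.58 and 6.85 ± 1.89 CPM and did not pass (edgeR adjusted p = 0.137).

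Among 23 tested chaperones and prolyl isomerases of the endoplasmic reticulum, 2 rose and 4 fell, which is 26.1% called beside 21.3% over all transcripts, and the median log2 change was -0.09. The 4 that fell were the prolyl isomerases PPIB (-0.71 ± 0.12, edgeR adjusted p = 0.00217), FKBP10 (-0.77 ± 0.17) and FKBP2 (-0.46 ± 0.13, with exonic bases shared with another gene), and the collagen chaperone SERPINH1 (-0.56 ± 0.15). PPIB, FKBP10 and SERPINH1 are known for collagen folding, and the collagen COL3A1 fell in the same libraries (-0.67 ± 0.18, edgeR adjusted p = 0.0229), a call that ended on leaving out control replicate 3, control replicate 4 or pregnant replicate 2 (adjusted p 0.051 to 0.0682). COL3A1 is from the list of 10 stromal markers, of which 3 were higher and 2, COL3A1 included, lower. The median log2 change of that list was 0.11, and its changes ran from -1.34 to 3.16. Sums of the stromal markers were 25592 to 30833 CPM in controls and 16895 to 24652 CPM in pregnant gilts, none at 0. The part of stromal cells in the falls of these chaperones was not tested. DNAJC1, a membrane-bound J-domain co-chaperone, rose from 12.3 ± 1.85 to 19.5 ± 2.16 CPM (0.67 ± 0.15, edgeR adjusted p = 0.0103), and SDF2L1 rose by 0.48 ± 0.14 (edgeR adjusted p = 0.0371). CALR, the lectin that works with PDIA3, had 1032 ± 53.6 and 825 ± 17.8 CPM without overlap and did not pass (-0.32 ± 0.11, edgeR adjusted p = 0.0597). It passed with library totals, with limma voom and with DESeq2, where its adjusted p was lowest (0.00425). Leaving out 1 library ended the call of SDF2L1 in 6 of 8 cases (edgeR adjusted p 0.0694 to 0.0945), all but control replicate 1 and pregnant replicate 2. It ended that of FKBP2 in all cases but control replicate 4 and pregnant replicate 3 (edgeR adjusted p 0.0526 to 0.076), and that of SERPINH1 in the cases of control replicate 1, pregnant replicate 2 and pregnant replicate 4 (edgeR adjusted p 0.0572 to 0.0696).

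Of 17 tested sensors and transcription factors of the unfolded protein response, 0 rose and 1 fell in the edgeR test, with a median of -0.06. Over all transcripts tested 11.2% rose and 10.1% fell. At an unadjusted p under 0.05, 1 was higher and 3 were lower, DESeq2 called 1 higher and 3 lower, and limma voom called 0 higher and 3 lower. The sensor ERN1 (IRE1 alpha), which splices XBP1 message, had 41.6 ± 6.80 and 41.9 ± 4.22 CPM, with a log2 change whose 95% interval was -0.31 to 0.33. The sensors EIF2AK3 (PERK) with 27.2 ± 5.78 and 31.0 ± 3.78 CPM and ATF6 with 8.06 ± 2.11 and 8.84 ± 2.13 CPM did not pass either. ATF4, the factor translated when PERK is active, had 245 ± 17.8 and 234 ± 31.0 CPM, and it shares exonic bases with another gene.

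The 1 sensor-family gene that fell was CREB3L4, a membrane-bound transcription factor of the CREB3 family found in secretory epithelia. Its levels were 9.80, 12.9, 11.2 and 3.29 CPM in controls and 1.56, 2.25, 3.21 and 2.10 CPM in pregnant gilts. Control replicate 4 lay just above the highest pregnant library, and the log2 change was -2.02 ± 0.39 (edgeR adjusted p = 0.00415). BHLHA15 (MIST1), a target of XBP1 in secretory cells that shares exonic bases with another gene, had 16.0 ± 8.79 and 33.2 ± 7.22 CPM and did not pass (1.06 ± 0.43, edgeR adjusted p = 0.112). It passed without control replicate 4 (0.74, edgeR adjusted p = 0.0349), the library with its lowest level.

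**Figure D4:**
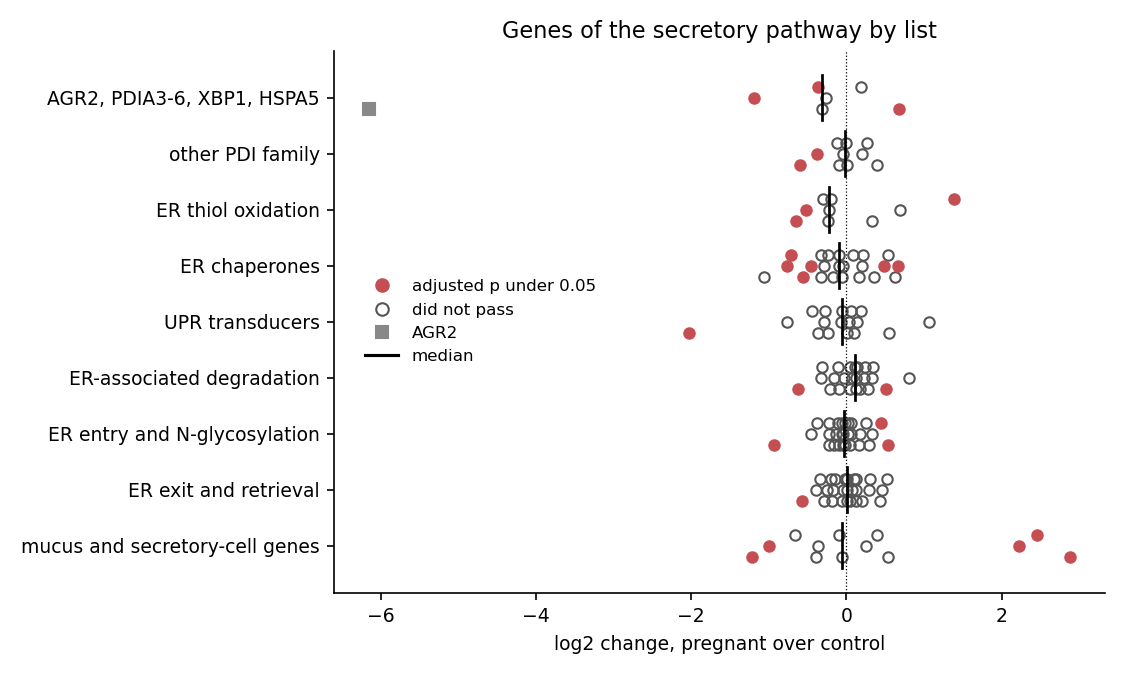
Log2 change of every tested gene in the folding and secretory gene lists, 1 point per gene, with the list median as a bar and genes with an adjusted p under 0.05 filled. For the list that holds AGR2 the bar includes AGR2 (-0.31), whereas the median of -0.29 in the text leaves it out. AGR2, the grey square at -6.14, lies to the left of every other point, and the lowest of the rest is CREB3L4 at -2.02.

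The steps before and after folding are read beside the 11.2% higher and 10.1% lower over all transcripts. Of 28 genes of entry into the endoplasmic reticulum and N-glycosylation, 2 rose and 1 fell (median -0.03), of 23 genes of degradation 1 rose and 1 fell (median 0.11), and of 27 genes of exit and retrieval 0 rose and 1 fell (median 0.00) in the edgeR test. For exit and retrieval, 4 were higher and 2 lower at an unadjusted p under 0.05, and DESeq2 called 2 higher and limma voom 1 higher, each with 1 lower. The signal peptidase subunit SEC11C fell from 70.8 ± 14.5 to 37.0 ± 2.47 CPM (-0.94 ± 0.15, edgeR adjusted p = 0.00139). EDEM2, which trims mannose from misfolded glycoproteins, rose from 36.3 ± 1.81 to 51.5 ± 3.15 CPM (0.50 ± 0.10, edgeR adjusted p = 0.00606). ERGIC1, a protein of the compartment between endoplasmic reticulum and Golgi, fell by 0.57 ± 0.11 (edgeR adjusted p = 0.0049).

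The KDEL receptors, which return escaped chaperones, were named after their values were seen. KDELR1 had 141 ± 11.4 and 119 ± 12.7 CPM and KDELR3 had 21.9 ± 4.08 and 17.2 ± 1.52 CPM, and neither passed (edgeR adjusted p = 0.154 and 0.148). The translocon genes SSR3 (0.45 ± 0.13) and SEC62 (0.53 ± 0.17) made up the 2 rises of the entry list. SSR3 no longer passed on leaving out any 1 library other than control replicates 1 and 2 and pregnant replicate 1 (edgeR adjusted p 0.0569 to 0.084). SEC62 no longer passed without any 1 library other than control replicate 2 and pregnant replicate 1 (edgeR adjusted p 0.0703 to 0.118).

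Genes of mucus and secretory cells, the setting in which AGR2 is best known, had 3 of 13 tested higher and 2 lower, with a median of -0.06, beside 11.2% higher and 10.1% lower over all transcripts. Of 24 genes listed, 17 were matched and 13 could be tested. The mucins MUC5AC, MUC5B, MUC6, MUC15 and MUC16 matched no transcript, as did ZG16 and DAG1, so the list does not survey the mucins. SPDEF, a transcription factor of goblet and other secretory cells, had 39.0, 52.6, 42.1 and 26.4 CPM in controls and 13.0, 16.6, 17.1 and 22.3 CPM in pregnant gilts. Every pregnant library was below every control library, and the log2 change was -1.21 ± 0.22 (edgeR adjusted p = 0.00304). FCGBP, a mucus protein, fell from 15.6 ± 3.58 to 7.84 ± 1.59 CPM (edgeR adjusted p = 0.00677). FOXA2, a factor of the uterine glands named after its values were seen, had 34.1 ± 12.5 and 26.5 ± 9.93 CPM and did not pass (edgeR adjusted p = 0.454).

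The transmembrane mucin MUC4 went opposite to AGR2. Its levels were 67.9, 58.0, 60.9 and 227 CPM in controls and 727, 839, 649 and 827 CPM in pregnant gilts. Control replicate 4 stood above the other controls but below all pregnant libraries. The log2 change was 2.88 ± 0.45 (edgeR adjusted p = 0.00184), and it was 3.61 without control replicate 4. MUC20 rose by 2.23 ± 0.39 (edgeR adjusted p = 0.00237) from 1.34 ± 0.795 to 6.25 ± 1.92 CPM. CLCA1, a protein of secreted mucus, rose by 2.45 ± 0.53 (edgeR adjusted p = 0.00819) from 0.310 ± 0.259 to 1.73 ± 0.655 CPM, and by 3.21 without control replicate 4.

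Cells that secrete antibody are rich in isomerases and XBP1, so their markers were read beside these genes. Of 8 tested plasma and B cell markers 5 rose and 0 fell in the edgeR test, beside 11.2% higher and 10.1% lower over all transcripts. At an unadjusted p under 0.05 the counts were 7 and 0, with DESeq2 5 and 0 and with limma voom 4 and 0, and 3 rose when control replicate 2, control replicate 3 or pregnant replicate 2 was left out. Their summed level was 48.5 to 57.6 CPM in controls and 82.5 to 267 CPM in pregnant gilts, and no marker mean was at 0. The joining chain JCHAIN had 32.7, 64.9, 187 and 45.4 CPM in pregnant replicates 1 to 4 and 22.4 to 32.8 CPM in controls. It rose by 1.58 ± 0.49 (edgeR adjusted p = 0.0483), or by 0.79 without pregnant replicate 3, and did not pass without any 1 control library or without pregnant replicate 2 (edgeR adjusted p 0.0692 to 0.11). MZB1, a plasma cell chaperone, was highest in the same library, with 30.4 CPM, and POU2AF1 too, with 12.3 CPM. PDIA5, PDIA6 and XBP1 also had their highest pregnant values there, and AGR2 its lowest. Other folding genes did not: PDIA4 was highest in pregnant replicate 2 (280 CPM), and PDIA3 (411 CPM) and HSPA5 (480 CPM) in pregnant replicate 4. TXNDC5 had 174 CPM in pregnant replicate 1 and 150 CPM in pregnant replicate 3. Without pregnant replicate 3 the change of PDIA5 was -1.47, which is larger than with it. The part of these cells in the other values was not tested.

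Markers of the remaining cell types were read over the same libraries, beside 11.2% higher and 10.1% lower over all transcripts. Of 11 ciliated-cell markers 0 rose and 0 fell in the edgeR test, with 0 higher and 1 lower at an unadjusted p under 0.05 and none in DESeq2 or limma voom, and their sums were 71.0 to 117 CPM in controls and 57.4 to 100.3 CPM in pregnant gilts. Of 9 endothelial markers 2 rose and 0 fell, and of 8 smooth muscle markers 0 rose and 5 fell. For endothelial markers, 3 were higher and 0 lower at an unadjusted p under 0.05, and DESeq2 and limma voom each called 2 higher and 0 lower. For smooth muscle markers the count was 0 higher and 7 lower at an unadjusted p under 0.05, and 0 higher and 5 lower with DESeq2 and with limma voom. All 8 smooth muscle markers had a negative log2 change, with a median of -0.74. Their sums were 725 to 1141 CPM in controls and 452 to 671 CPM in pregnant gilts, without overlap. Endothelial sums were 1060 to 1525 and 1222 to 1658 CPM. The part of muscle cells in the values of the folding genes was not tested. No mean of these markers was at 0.

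None of the 4 tested neighbours of AGR2 on chromosome 9 passed the test (edgeR). BZW2, which lies 24429 bases before AGR2 on the same strand, had 38.9 ± 11.8 and 38.6 ± 3.99 CPM (-0.01 ± 0.21, edgeR adjusted p = 0.979). TSPAN13, which lies 8825 bases beyond AGR2 on the opposite strand, had 38.3 ± 13.3 and 54.4 ± 6.55 CPM and did not pass (0.51 ± 0.24, edgeR adjusted p = 0.167). An unnamed gene 126962 bases before AGR2 did not pass either (-0.33 ± 0.16, edgeR adjusted p = 0.181), nor did ISPD, at 294500 bases (-0.06 ± 0.54, edgeR adjusted p = 0.949). SOSTDC1 and a further unnamed gene between them had too few reads to test.

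**Figure D5:**
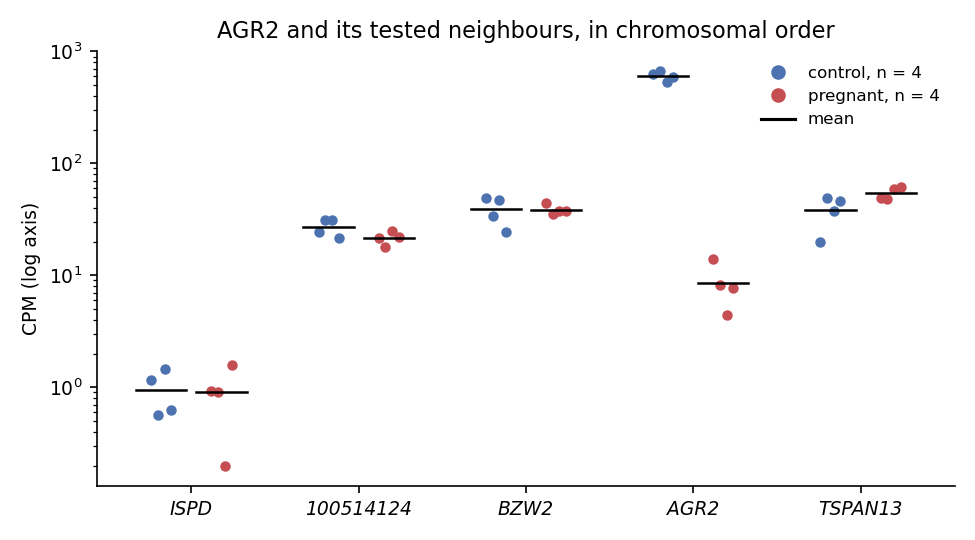
CPM (log axis) of AGR2 and its 4 tested neighbours, in their order along chromosome 9, in the 4 control and 4 pregnant libraries, with 1 point per animal and the group mean as a line. The groups of AGR2 stand far apart, and those of each neighbour overlap.

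The genes whose pattern over the 8 libraries was nearest to that of AGR2 were found by the root-mean-square difference of mean-centred log2 CPM, among 10167 named genes. They were AQP5 (0.53), CYP26A1 (0.61), MMP8 (0.81), CDH17 (0.90), FGF18 (0.93) and SLC6A15 (0.94), with 0 for an identical pattern. The water channel AQP5 had 19.1, 11.1, 15.1 and 12.1 CPM in controls and 0.0708, 0.0523, 0 and 0.0610 CPM in pregnant gilts, from at most 2 reads per pregnant library. The retinoic acid hydroxylase CYP26A1 had 185, 241, 175 and 152 CPM in controls and 10.1, 1.67, 1.82 and 1.22 CPM in pregnant gilts. As with AGR2, pregnant replicate 1 held the highest remaining level of CYP26A1, and also of AQP5 and SLC6A15. The others went another way, with the highest level of MMP8 in pregnant replicate 2, of CDH17 in replicate 3 and of FGF18 in replicate 4. The amino acid transporter SLC6A15 had 27.6 to 33.0 CPM in controls and 0.888 to 2.34 CPM in pregnant gilts, and the cadherin CDH17 had 6.10 to 19.5 and 0.157 to 0.331 CPM. These genes were picked for the likeness, so their values are a description and carry no test.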

How the data were processed

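Poly(A) RNA of 8 libraries, 4 per group, was sequenced with a kit that does not mark strand, per the labels' protocols. For each library the authors deposited read counts over transcripts of a merged assembly, and exon positions on Sscrofa10.2 in other files. Tools listed in the submitters' processing notes are TopHat 1.4, Cufflinks 1.3, CASAVA 1.6 and DESeq. The counting tool is not given in the sources used here. A RefSeq table of Sscrofa11.1 gave symbols only, and it matched 16270 genes by Entrez ID and 103 by accession. Coordinates and exon lengths are from the deposited assembly, counted from 1. Genes with shared exonic bases are named as such.

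Counts were fitted in edgeR 4.0.16 with R 4.3.3 (TMM scaling, low counts removed by filterByExpr at 10 reads, quasi-likelihood test with robust estimation), over all 18783 transcripts that passed the filter, of 24139. Benjamini-Hochberg adjustment ran over all of them, and an adjusted p under 0.05 passed. CPM use TMM-scaled library sizes, means carry the SD over 4 animals, and log2 changes carry the SE implied by the F statistic. Intervals are at 95%. DESeq2 1.42.0, limma 3.58.1 (voom), other scalings, no filter, 1 transcript per gene, a replicate block and leaving out each library were alternatives. Counts of libraries differed from each other beyond sampling noise (lowest chi-square per degree of freedom 41.3), so none was counted as a repeat.

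The genes, the lists and their tests were chosen with earlier results of these data known. From the family, oxidation and unfolded protein response lists any gene could be named. From the other lists up to 6 tested genes with the smallest p and the 2 most abundant could be named, and the text leaves some out. The 6 genes nearest to AGR2 were added. The same rule for 3 genes nearest to AGR3 could not be applied. EPCAM, FOXA2, KDELR1, KDELR3, MRC1, CANX, CD8A, CD14, TAPBP and TAP1 were named after their values were seen. A result that the naming rule takes in is not reported here.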

Additional observations from a re-analysis of the deposited data

Results flagged for a closer look

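For 67 genes named in the text, the highest or lowest of the 4 values in each group was set against the other 3, and a gap to the nearest of them above Dixon's critical share of the group's whole range marked it as far from the others. Of 134 groups 9 were marked, and chance alone marks about 1 in 20. In pregnant gilts PDIA5 had 135 CPM in replicate 3 against 68.6 to 73.8 in the others, and PDIA3 had 315 CPM in replicate 1 against 397 to 411. ATF6 had 12.0 CPM in pregnant replicate 4 against 7.58 to 8.07. CYP26A1 had 10.1 CPM in pregnant replicate 1 against 1.22 to 1.82, and MMP8 had 0.418 CPM in pregnant replicate 2 against 0.0354 to 0.0662. MRC1 had 10.24 CPM in pregnant replicate 2 against 6.86 to 7.33. In controls MUC4 had 227 CPM in replicate 4 against 58.0 to 67.9, PPIB had 245 CPM in replicate 1 against 181 to 190.4, and EDEM2 had 39.0 CPM in replicate 3 against 35.03 to 35.6.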

How the results depend on the processing

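No log2 change of the 7 genes reversed under any alternative, and those of PDIA5, HSPA5 and XBP1 kept their side of the threshold under all of them. AGR2, which carries no test, ran from -6.47 to -5.93 over the left-out libraries. With library totals in place of TMM, PDIA3 was 0.54 and no longer passed, while PDIA6 was -0.44 and passed. That scaling moved the median of all transcripts by -0.13 and the share of higher among all calls from 52.7% to 33.6% (1661 higher, 3284 lower), and relative to the median PDIA3 was 0.69 and PDIA6 -0.29. PDIA6 also passed in DESeq2 (-0.30). PDIA4 no longer passed without a low-count filter (-0.35), and leaving out 1 library gave -0.41 to -0.33, with the call lost in 6 of 8 cases. Fewer samples were fitted in those cases, and for the other changes of call the cause was not tested.

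Counts of calls moved as follows. With library totals, of the 6 genes other than AGR2 0 were higher, the chaperones had 1 higher and 8 lower, the unfolded protein response genes 5 lower, degradation 4 lower, entry 0 higher and 4 lower, and exit 3 lower. With DESeq2 the chaperones had 4 higher and 7 lower, the unfolded protein response genes 1 higher and 3 lower, entry 2 lower and exit 2 higher. With limma voom the unfolded protein response genes had 3 lower and exit 1 higher. Exit also had 1 higher with DESeq2 size factors, without a filter and with 1 transcript per gene. Without a filter 1 of the 6 genes and 1 of the other isomerases were lower.

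Leaving out 1 library at a time gave these ranges, grouped by list. The 6 genes had 1 to 2 lower, the other isomerases 0 to 1 higher and 0 to 3 lower, thiol oxidation 0 to 1 higher, and the chaperones 1 to 3 higher and 2 to 5 lower. The unfolded protein response genes had 0 to 2 higher and 1 to 2 lower, entry 0 to 2 higher and 1 to 2 lower, and exit 0 to 1 higher. Epithelial markers had 1 to 2 higher, plasma and B cell markers 3 to 5 higher, macrophage markers 0 to 1 lower, and stromal markers 1 to 2 lower. Over all transcripts 1265 to 2017 were lower, the fewest without pregnant replicate 2.

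The labels number the replicates in both groups without saying that a number pairs animals. Deviations of same-numbered libraries had correlations of 0.19, -0.09, -0.03 and 0.09, where other pairs ran from -0.33 to 0.17. With 4 animals per group these values cannot decide whether a number pairs samples. With the replicate number as a block, 2070 transcripts were higher and 1813 lower, other isomerases had 1 lower, epithelial markers 2 higher and stromal markers 0 lower. PCR reads are not independent molecules, and precision is limited by 4 animals per group.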

Other observations

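Some secretory and epithelial genes had their control value nearest to the pregnant range in control replicate 4, an animal whose AGR2 level was unremarkable among controls at 588 CPM. In that library MUC4 was 227 CPM against 58.0 to 67.9 in the other controls, CREB3L4 was 3.29 against 9.80 to 12.9, and SPDEF was 26.4 against 39.0 to 52.6. FCGBP was 11.0 against 15.9 to 19.7, and KRT19 was 141 against 209 to 308. FOXA2, at 18.5 CPM against 33.5 to 49.0, was lowest there too. Other genes did not follow. KRT8 was nearest to its pregnant range in control replicate 2, and ESRP1 (60.9 CPM) and CLDN4 (669 CPM) in control replicate 1. BHLHA15 had a higher mean in pregnant gilts that did not pass. Its control value farthest from the pregnant ones was in control replicate 4 (4.18 CPM). These genes were picked after their values were seen and no test was made.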
